A study of Mus musculus with 25 samples.

Results

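The comparison of postnatal diet in female offspring (code B in the sample titles) set 6 hypothalamus libraries of mice weaned onto a hypercaloric diet (HCD) against 6 libraries of mice weaned onto regular chow (RD). Its members are the 12 library columns of the 2 deposited count tables for code B, of 24 library columns in all 4 tables and 25 labelled samples. All mice were wild-type C57BL/6J females, killed at 3 months of age. HCD is a high-sucrose feed with 52% fat, given from weaning. Within each postnatal diet the labels list 3 offspring of dams fed HCD and 3 of dams fed RD, the dams having been on their diet from 1 month before mating through lactation. The column names are running numbers that match no sample label, so maternal diet could not be given to a column and every value below is averaged over it. Each postnatal diet has its own table, so the table and the diet cannot be told apart. Whether littermates are among the samples is not stated in the labels, so the tests rest on sample-to-sample spread, which may be partly technical. The question the comparison addresses is which hypothalamic transcripts differ with the diet eaten after weaning.

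The hypothalamus senses leptin, insulin and nutrients and sets feeding and energy use. Arcuate neurons that make Pomc-derived melanocortins restrain feeding through the receptor Mc4r, and neighbouring neurons that make Agrp and Npy promote it. The lateral hypothalamus holds the orexin (Hcrt) and melanin-concentrating hormone (Pmch) neurons, and the paraventricular and supraoptic nuclei hold the oxytocin and vasopressin neurons. Each of these peptides is made by a small, local cluster of cells, and thalamus, habenula, striatum, cortex and choroid plexus lie next to the tissue.

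Total counts were 22173291 to 30847775 in 10 of the libraries, 16916935 in library 35 (RD-weaned) and 8515337 in library 29 (HCD-weaned). Of the 15369 genes with a mean count of 10 or more, 23.8% were at 0 in library 29 and 7.24% in library 35, against 0.026% to 1.72% in the other 10. Rn45s, the ribosomal RNA precursor that poly(A) selection removes, stood at 7301 counts per 1000000 (CPM, scaled by trimmed mean of M values, TMM) in library 29 and 4761 in library 35, and at 56.9 to 1779 in the others. These 2 libraries, 1 from each diet, therefore stand apart, and values without them are given below. The X-inactivation RNA Xist was present in all 12 libraries, at 55.2 to 492 CPM, and 4 Y-linked genes were below the minimum count, as the label female requires. No pair of libraries of a diet was alike enough to be a single library under 2 numbers, the lowest chi-square per degree of freedom between such pairs being 35.1.

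No gene differed between HCD-weaned and RD-weaned females at an adjusted p under 0.05 in edgeR's quasi-likelihood test. Of 15369 genes tested, 0 (0.0%) were called in either direction, and the smallest adjusted p was 0.994. At an unadjusted p under 0.05 there were 498 genes (3.24%), of which 290 had higher values in HCD-weaned females (1.89%) and 208 lower values (1.35%). DESeq2 called 0 genes and had 665 at an unadjusted p under 0.05 (4.33%), and limma with sample quality weights called 0 and had 2423 (15.8%). The median log2 fold change, HCD-weaned minus RD-weaned, was -0.03 over all genes, with quartiles of -0.25 and 0.17. In this bulk tissue, fewer cells of a type and less RNA per cell cannot be told apart.

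The intervals show which sizes of difference the 12 libraries cover. For 9108 genes (59.3%) the 95% interval of the fold change lay within a 2-fold change either way. The median distance from the estimate to either end of the interval was 0.60 on the log2 scale. For the remaining genes a 2-fold difference was not excluded by the interval, and the hypothalamic peptides below are mostly among these. The median standard deviation of log2 CPM within a diet was 0.50 over all genes and 0.38 without libraries 29 and 35. The small amount added before taking log2 differed between these 2 values, so they are not on exactly the same scale.

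**Figure D1:**
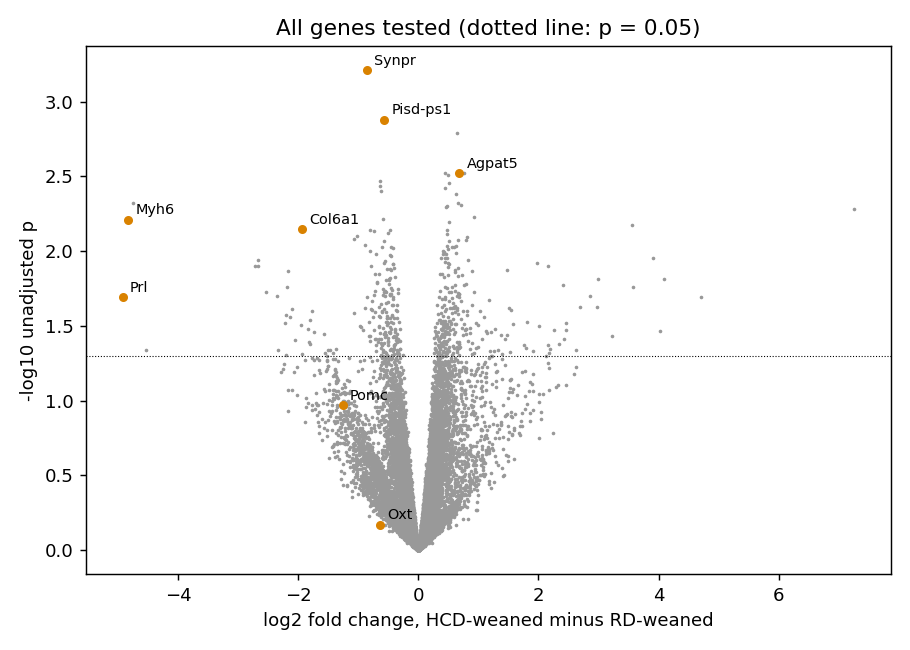
Each point is 1 of the 15369 genes tested, with the log2 fold change (HCD-weaned minus RD-weaned) on the horizontal axis and -log10 of the unadjusted p on the vertical axis; the dotted line marks an unadjusted 0.05. Synpr lies highest, and the genes farthest to the left, such as Prl and Myh6, are near 0 CPM in most libraries.

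The melanocortin and Npy system held no called gene: 0 of 16 members passed, 0 had an unadjusted p under 0.05, and their median log2 fold change was -0.09. Pomc, the melanocortin precursor (chromosome 12, 3954945 to 3960643), had 1.45, 4.76 and 6.12 CPM as the lowest, median and highest of the HCD-weaned libraries and 2.50, 3.07 and 46.6 CPM in the RD-weaned ones. The medians thus run against the fitted value, because RD-weaned library 22 alone, at 46.6 CPM, lay far above the other 11. The fitted log2 fold change of Pomc was -1.26 (95% interval -2.83 to 0.31), and without library 22 it was 0.40. Pituitary, which also makes Pomc, has its hormones growth hormone (Gh, 41.0 CPM) and prolactin (Prl, 96.8 CPM) high in that same library, against at most 1.69 and 2.70 CPM in any HCD-weaned library. Of the 12 pituitary markers, 7, Pou1f1 and Tbx19 among them, were below the minimum count. The sum of the 5 others ran from 142.1 to 536.2 CPM in HCD-weaned and from 137.1 to 419 CPM in RD-weaned libraries. It did not follow the hormones, since library 17, with the highest sum (536.2 CPM), had Gh and Prl at 0 CPM. The part of pituitary RNA in the Pomc value was not tested.

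Agrp, which blocks the melanocortin receptors, was scarce, at 0, 0.417 and 1.03 CPM in HCD-weaned females and 0, 0.449 and 1.54 CPM in RD-weaned females. The groups overlapped throughout, and the log2 fold change of -0.46 had an interval from -2.59 to 1.67; it was -0.91 without library 18 and 0.08 without library 37. Npy, the co-transmitter of the Agrp neurons, had 12.1, 47.4 and 136.7 CPM in HCD-weaned libraries and 17.8, 70.0 and 148.9 CPM in RD-weaned ones. Its log2 fold change was -0.38 (-1.47 to 0.71), and with 1 library left out it was between -0.84 (without library 18) and -0.06 (without library 22). Cartpt, a feeding-restraining peptide made with Pomc and elsewhere in the hypothalamus, had 2.58, 20.6 and 129.9 CPM against 2.91, 8.81 and 82.5 CPM. Within each diet its lowest and highest libraries lay far apart, and the log2 fold change was 0.80 (-1.08 to 2.67). It was 0.10 without library 16, 1.63 without library 37 and 0.30 without libraries 29 and 35. Mc4r, the melanocortin receptor that restrains feeding, had 0, 2.70 and 3.72 CPM against 1.83, 2.90 and 4.92 CPM, the 0 being in library 29. Its log2 fold change was -0.36 (-1.73 to 1.01) with all libraries and 0.07 (-0.51 to 0.66) without libraries 29 and 35, where the interval lay within 2-fold. The receptors Npy1r and Npy2r had log2 fold changes of -0.42 and -0.60, and Npy1r had -0.13 without libraries 29 and 35. The enzymes that cut or trim Pomc were measured more tightly: Pcsk2 had -0.21 (-0.57 to 0.15) and Cpe 0.35 (-0.09 to 0.78).

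The lateral hypothalamic peptides differed far more among libraries of a diet than between diets. Pmch had 3.87, 93.5 and 295 CPM in HCD-weaned libraries and 0.741, 126 and 906 CPM in RD-weaned ones. Hcrt had 0.532, 8.67 and 65.0 CPM against 0, 17.5 and 186 CPM. For both, the lowest and the highest of all 12 libraries were RD-weaned, so the HCD-weaned range lay inside the RD-weaned range. Their log2 fold changes were -1.25 (-3.57 to 1.06) for Pmch and -1.29 (-4.03 to 1.45) for Hcrt. Single libraries moved both: Pmch was -0.50 without library 37, and Hcrt was -0.34 without library 36 and -2.0 without library 28. Of the 28 tested members of the list of lateral hypothalamic and other feeding peptides and receptors, 0 were called and 0 had an unadjusted p under 0.05, with a median of -0.21. For 7 of the 28 the interval lay within 2-fold, among them Scg2 (-0.21), a granule protein, and Ntrk2 (0.11), the receptor of the growth factor Bdnf. Bdnf itself had a value of -0.38, and Cck, a satiety peptide also abundant in cortex, -0.07.

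Oxytocin and vasopressin also spread widely within each diet. Oxt (chromosome 2, 130574519 to 130577054) had 0, 4.63 and 149.6 CPM in HCD-weaned libraries and 0.148, 1.55 and 169 CPM in RD-weaned ones. Avp, its neighbour on the chromosome, had 3.75, 11.4 and 345 CPM against 0, 2.51 and 123 CPM. A few libraries of each diet carried most of both transcripts: library 28 among the HCD-weaned, and libraries 36 and 37 among the RD-weaned. The log2 fold change was -0.64 (-3.84 to 2.56) for Oxt and 0.98 (-1.87 to 3.82) for Avp. The sign depended on single libraries, since Oxt was -2.50 without library 28, -0.04 without library 36 and 0.26 without library 37. Avp was -1.63 without library 28 and 2.04 without library 37. The within-diet standard deviation of log2 CPM was 3.95 for Oxt, 3.92 for Hcrt, 3.18 for Avp and 3.13 for Pmch, against a median of 0.50 over all genes.

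The list of magnocellular and pituitary-regulating hormones also holds genes that are not hormones, Ddc and Gabra5 among them. Of its 25 tested members, 0 were called and the interval of 1 lay within 2-fold. Ddc, the enzyme that makes dopamine from L-DOPA, had 23.5, 37.9 and 64.6 CPM in HCD-weaned females and 9.49, 25.2 and 39.5 CPM in RD-weaned ones, a log2 fold change of 0.80 (0.07 to 1.52), or 0.55 (-0.15 to 1.25) without libraries 29 and 35. Gabra5, a GABA-A receptor subunit abundant in hippocampus, had 29.4, 34.0 and 85.5 CPM against 42.3, 84.3 and 112 CPM, a log2 fold change of -0.72 (-1.40 to -0.04). These were the 2 members with an unadjusted p under 0.05, and their groups overlapped. Th, the enzyme before Ddc, had 0.79, the stress hormone Crh -0.85, the thyroid-axis hormone Trh -0.64 and somatostatin (Sst) -0.37. Vip, the peptide of suprachiasmatic clock neurons, had -1.77 (-3.57 to 0.02), with 0, 5.18 and 15.6 CPM against 1.54, 15.3 and 57.8 CPM.

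**Figure D2:**
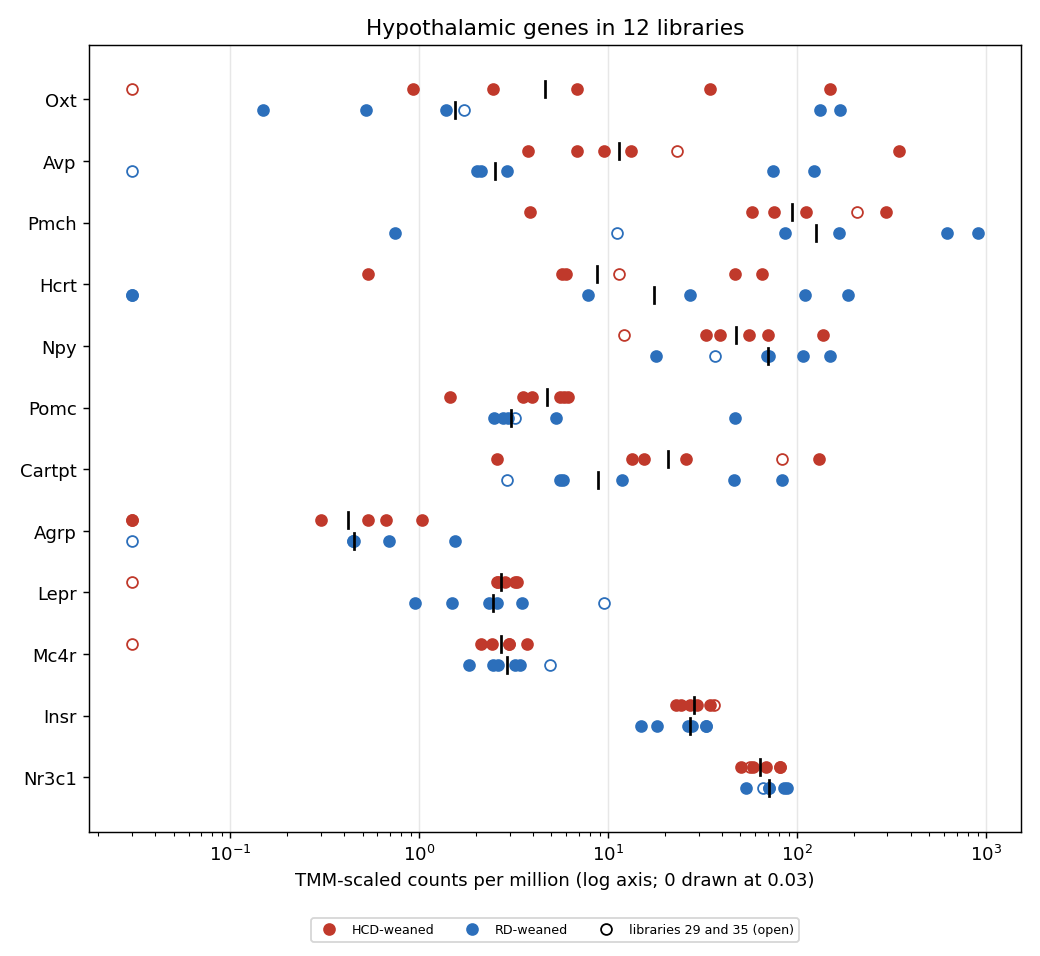
TMM-scaled CPM (log axis, 0 drawn at the left edge) of 12 hypothalamic genes, with 1 point per library, HCD-weaned in red and RD-weaned in blue, medians as black bars and libraries 29 and 35 open. Points of Oxt, Avp, Pmch and Hcrt lie far apart within each diet (for Pmch 3.87 to 295 CPM in HCD-weaned and 0.741 to 906 CPM in RD-weaned libraries), whereas Insr and Nr3c1 fall in narrow, overlapping ranges.

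The receptors for leptin, insulin and glucocorticoid were measured with different precision. Insr, the insulin receptor, had 22.9, 28.4 and 36.2 CPM in HCD-weaned females and 14.8, 27.1 and 32.96 CPM in RD-weaned females, and Nr3c1, the glucocorticoid receptor, had 50.5, 63.1 and 80.7 CPM against 53.5, 70.9 and 88.7 CPM. Both pairs of groups overlapped, and the log2 fold changes of 0.19 (-0.28 to 0.66) for Insr and -0.14 (-0.49 to 0.21) for Nr3c1 had intervals within 2-fold. They are the 2 of the 13 genes named by rule for which this held. Lepr, the leptin receptor, had 0, 2.71 and 3.30 CPM against 0.949, 2.45 and 9.49 CPM, its lowest value being in library 29 and its highest in library 35. Its log2 fold change was -0.47 (-2.02 to 1.08) with these libraries and 0.42 (-0.31 to 1.15) without them. Of the 32 tested genes of leptin, ghrelin and insulin signalling, 0 were called, 0 had an unadjusted p under 0.05 and 22 had an interval within 2-fold, with a median of -0.06. Among those 22, Akt1, a kinase downstream of the insulin receptor, had -0.03 (-0.30 to 0.24), Mtor 0.02 (-0.36 to 0.39) and Stat3, the transcription factor that leptin activates, 0.25 (-0.05 to 0.55). Socs3, the leptin-induced inhibitor of that pathway, had -0.80 (-2.18 to 0.59), and -0.37 (-1.05 to 0.32) without libraries 29 and 35.

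The genes with the smallest unadjusted p among those with a mean count of 100 or more, 10 in each direction, had log2 fold changes of 0.44 to 0.76 and of -0.48 to -1.93. None was called. They were chosen by their p, so their values are a description. Without libraries 29 and 35 all 20 kept their sign, with 0.41 to 0.75 and -0.45 to -1.70.

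Synpr, which encodes the synaptic vesicle protein synaptoporin (chromosome 14, 13284780 to 13615469), had the smallest p of all genes. Its levels were 68.0, 101 and 132 CPM in HCD-weaned females and 114, 189 and 244 CPM in RD-weaned females, and the groups overlapped only where RD-weaned library 36 lay at 114 CPM. The log2 fold change was -0.86 (-1.28 to -0.43), with an unadjusted p of 0.000614 and an adjusted p of 0.994 in edgeR's quasi-likelihood test. Other genes with lower values were Celf3, an RNA-binding protein of neurons (-0.64), B3galt2, a galactosyltransferase (-0.80), Col6a1, a collagen VI chain (-1.93), and Pisd-ps1, a pseudogene whose reads may be shared with its parent Pisd (-0.56).

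For 31 genes (0.202%) the values of the 2 diets did not overlap, 13 of them higher (0.0846%) and 18 lower (0.117%) in HCD-weaned females. With so few libraries per diet, a similar share of genes would separate completely by chance, so the 31 do not exceed what chance gives. The separated genes named below are therefore a description. Pgam1, a glycolytic mutase, had 42.1, 70.9 and 90.0 CPM in HCD-weaned females against 94.0, 105 and 111 CPM in RD-weaned ones, a log2 fold change of -0.58 (-0.97 to -0.19). Rab34, a GTPase of Golgi and cilia, had 6.75, 16.7 and 19.2 CPM against 20.2, 24.4 and 32.3 CPM, and Cav2, a caveolin, 14.1, 20.2 and 25.5 CPM against 26.3, 30.8 and 35.6 CPM. In all 3 the highest HCD-weaned library lay just under the lowest RD-weaned one. Smpd4, a sphingomyelinase (-0.63), and Herc4, a ubiquitin ligase (-0.48), showed the same order. Ufd1l, a cofactor in protein degradation (-0.34, or -0.22 without libraries 29 and 35), and Cnrip1, a cannabinoid receptor partner (-0.33), did so too.

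In the other direction, Ttyh2, a membrane protein of the tweety family, had 80.3, 87.8 and 103 CPM in HCD-weaned females and 52.1, 68.7 and 73.3 CPM in RD-weaned ones, a log2 fold change of 0.45 (0.18 to 0.71). Cntn2, an adhesion molecule of myelinated axons, had 154, 185 and 204 CPM against 114, 132 and 154 CPM, the groups lying side by side at 154 CPM. Trf, transferrin, which in brain is made mainly by oligodendrocytes, had 1086, 1260.5 and 1526 CPM against 762, 943 and 1072 CPM, a log2 fold change of 0.44. Ndrg1, a protein of myelinating glia, had 0.38. Beside these, the 11 myelin markers had a median of 0.08, all 11 intervals lay within 2-fold, and their sum ran from 17272.7 to 27074.7 CPM in HCD-weaned and from 13325.8 to 26848.5 CPM in RD-weaned libraries. The myelin protein Mag alone of the 11 had an unadjusted p under 0.05 (0.33, 0.01 to 0.64). Further genes with higher values, whose groups overlapped, were Agpat5, an acyltransferase of phospholipid synthesis (0.68), and Cables1, a Cdk5 partner (0.76). Gab1, an adaptor of growth factor receptors (0.66), Slc6a9, a glycine transporter (0.52), and Nefm, a neurofilament subunit (0.63), belonged to them too.

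**Figure D3:**
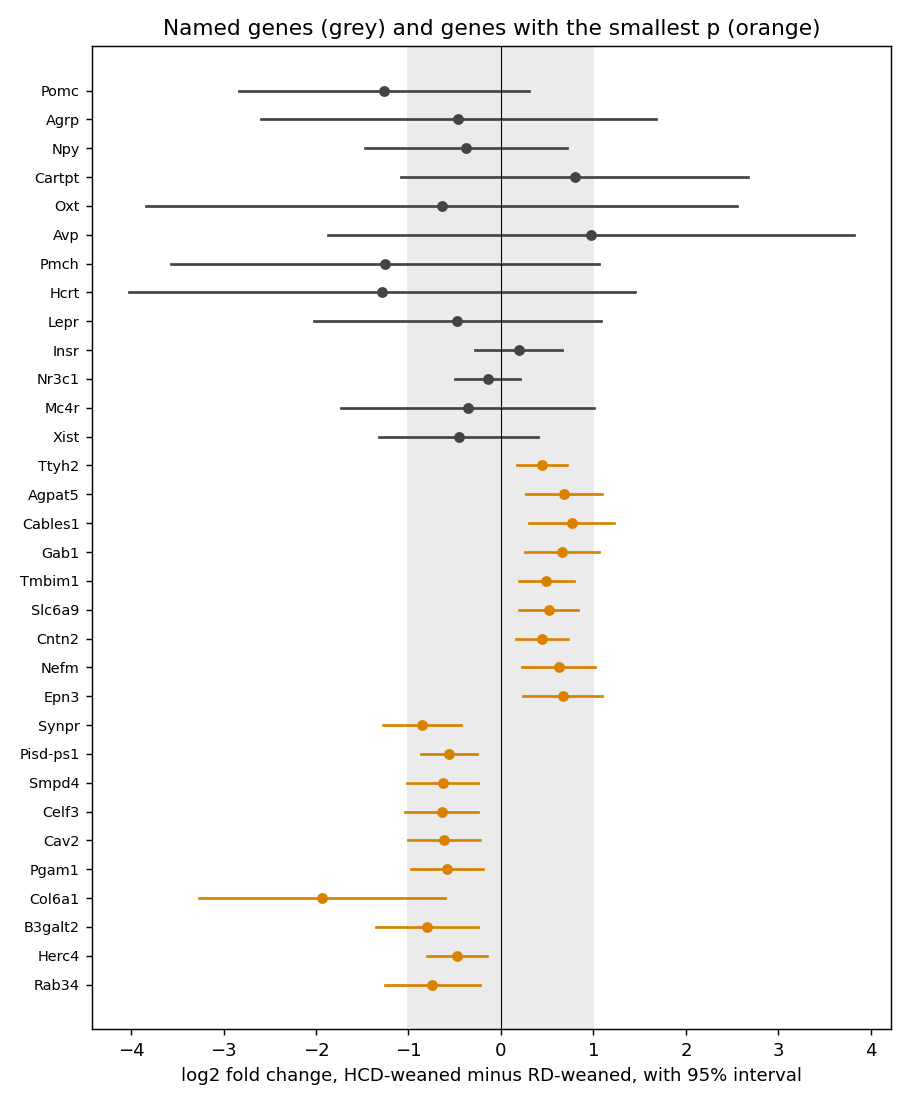
Log2 fold change (HCD-weaned minus RD-weaned, dot) with its 95% interval (line) for the 13 genes named by rule (grey) and 19 of the 20 genes with the smallest p (orange); the shaded band marks a 2-fold change either way. The intervals of Insr and Nr3c1 lie within the band, and those of Oxt, Avp, Hcrt and Pmch extend beyond it on both sides.

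Across 23 lists of pathway genes, 674 of 703 symbols were tested and 0 were called. At an unadjusted p under 0.05 there were 10 higher and 6 lower, or 2.37% of those tested against 3.24% of all genes. The interval lay within 2-fold for 445 of the 674 (66.0%). Without libraries 29 and 35 the unadjusted p of Ddc, Gabra5, Rela, Hspa5, Hspa4l, Acot1, Abcg1 and Thra was no longer under 0.05.

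Heat shock proteins and their partners, which fold proteins in the cytosol and mitochondria, had a median log2 fold change of 0.24, with 21 of 26 values positive against a median of -0.03 over all genes. The 3 with an unadjusted p under 0.05 were Hspd1, the mitochondrial chaperonin (0.48), Hspa4l (0.44) and Hspa4 (0.38), both of the Hsp110 family. Hspd1 had 123.5, 149.9 and 177 CPM in HCD-weaned females against 77.2, 109.7 and 141 CPM in RD-weaned females, with overlap. For 23 of the 26 the interval lay within 2-fold; the strongly inducible Hspa1a (0.33) and Hspa1b (-0.18) were among the 3 others. Genes of the unfolded protein response of the endoplasmic reticulum had a median of 0.09, with 18 of 24 positive, and the chaperone Hspa5 stood at 0.37. Without libraries 29 and 35 the medians were 0.21 for heat shock proteins and 0.08 for the unfolded protein response.

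With all 12 libraries, most intervals of energy metabolism genes lay within 2-fold. Of 75 oxidative phosphorylation subunits, 66 had an interval within 2-fold and the median was 0.11. Sdha of complex II had 0.40 and Uqcrc2 of complex III -0.46. Without libraries 29 and 35, 58 of the 75 subunits had such an interval (77.3%), against 73.8% of all genes. Cholesterol and fatty acid synthesis genes had a median of 0.05, with 31 of 34 intervals within 2-fold. Nsdhl, a sterol dehydrogenase, was the 1 member with an unadjusted p under 0.05 (-0.57), with 17.2, 22.9 and 29.4 CPM against 27.6, 33.7 and 44.3 CPM. Fatty acid oxidation and lipid handling had a median of 0.08, with Acot1, a cytosolic acyl-CoA thioesterase, at 0.64 (0.42 without libraries 29 and 35) and Abcg1, a cholesterol exporter, at 0.34. Glucose transport and glycolysis genes had a median of 0.10, and Pgam1 was their only member with an unadjusted p under 0.05. Cytosolic ribosomal proteins had a median of -0.01, with 67 of 78 intervals within 2-fold.

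With all 12 libraries, inflammatory genes were measured with less precision. Of 33 tested genes of NF-kB and cytokine signalling, 12 had an interval within 2-fold and the median was 0.04. Without libraries 29 and 35, 23 of 34 had such an interval. Rela, the main activating subunit of NF-kB, had 22.3, 30 and 48.9 CPM against 12.7, 21.5 and 28.03 CPM, a log2 fold change of 0.62. Its highest and lowest values were in libraries 29 and 35, and without them it was 0.36 (-0.02 to 0.73). Il1a, a scarce interleukin transcript, had 0, 0.311 and 1.02 CPM against 0.723, 1.24 and 1.96 CPM (-1.74). The 30 interferon and MHC class I genes had a median of -0.04, with Tap2, a peptide transporter, at 0.81. Their intervals lay within 2-fold for 15 genes with all libraries and for 25 (83.3%) without libraries 29 and 35. The 14 microglia and macrophage markers had a median of -0.04, 10 with an interval within 2-fold, and their sum was 713.9 to 1117.6 CPM in HCD-weaned and 538.1 to 1101.3 CPM in RD-weaned libraries. The 12 astrocyte markers had a median of 0.08, and 11 intervals lay within 2-fold.

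Among regulatory lists, enzymes of DNA methylation and chromatin (50 tested) centred on a median of -0.07, 39 with an interval within 2-fold, and 23 circadian clock genes had -0.06, 19 within 2-fold. Glucocorticoid receptor targets had 0.09 and immediate early genes -0.04. Thyroid hormone genes had -0.14, with Thra, the thyroid hormone receptor alpha, at -0.46 (348, 493 and 642 CPM against 516, 690.5 and 782.5 CPM). Synaptic release and transmission genes had -0.16, with 24 of 37 negative. None of these lists held a called gene.

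**Figure D4:**
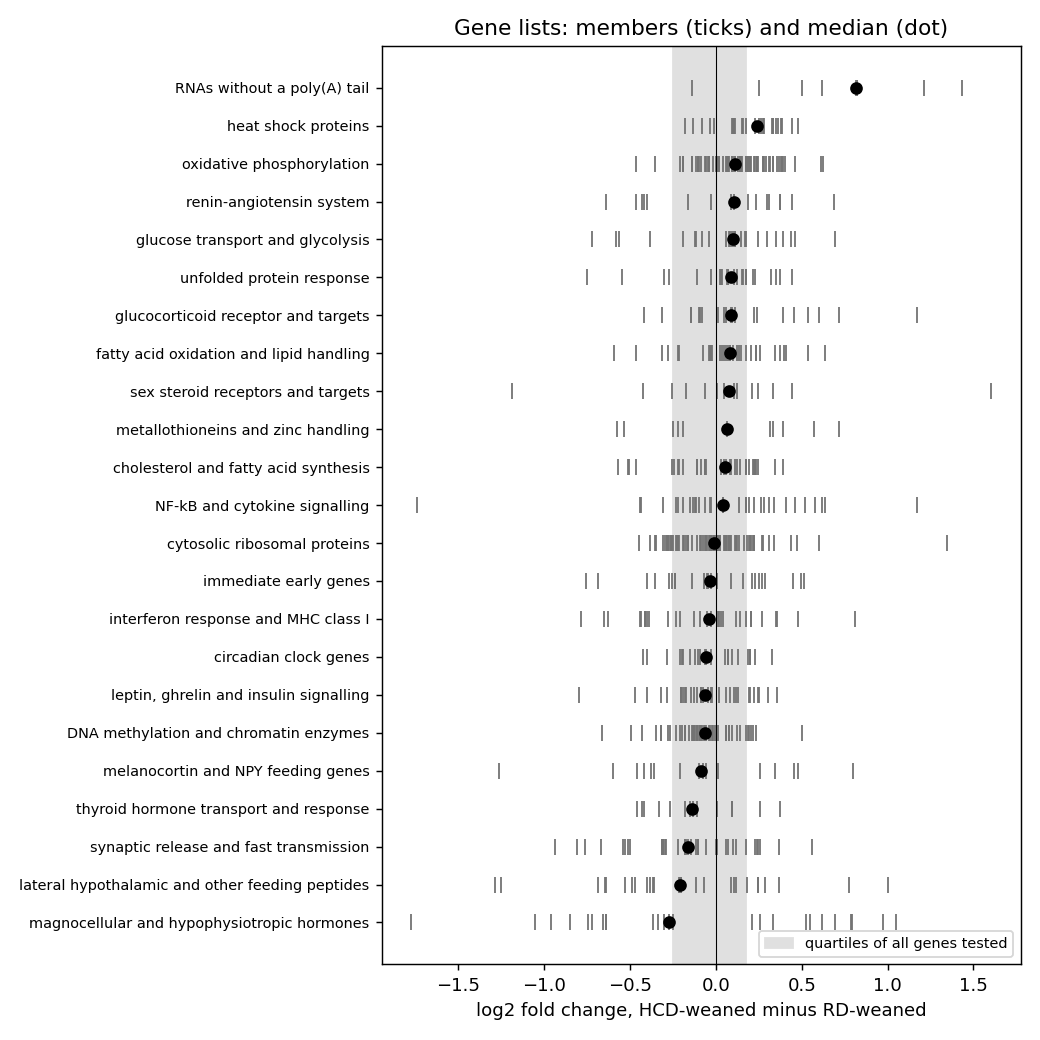
Log2 fold change (HCD-weaned minus RD-weaned) of every tested member (grey ticks) and the median (black dot) of the 23 pathway lists; the grey band spans the quartiles of all genes tested, -0.25 to 0.17. The medians of 20 lists lie inside the band, heat shock proteins at 0.24 and RNAs without a poly(A) tail at 0.81 lie above it, and magnocellular and hypophysiotropic hormones at -0.27 lie below it.

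RNAs that carry no poly(A) tail had the median farthest from 0, at 0.81 over 9 tested members. Their levels mostly followed the 2 libraries that stand apart: Rpph1, the RNase P RNA, reached 425.7 CPM in library 29 and 139.5 CPM in library 35, with diet medians of 4.66 and 3.85 CPM. Rpph1 was also raised, to a lesser degree, in HCD-weaned library 30 (28.5 CPM) and RD-weaned library 22 (23.65 CPM). The list's median was -0.90 without library 29 and 3.11 without library 35. Without both it was 0.40, with 8 of 9 members positive.

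Markers of neighbouring regions also varied among libraries, with median within-diet standard deviations of log2 CPM of 0.71 for thalamus, 1.38 for striatum, 1.61 for cortex and hippocampus and 1.75 for habenula, against 0.50 for all genes. Of 18 transcription factors of hypothalamic neurons, 12 were tested, and the 6 below the minimum count were Nr5a1, Hmx2, Hmx3, Six6, Bsx and Nkx2-4. The summed level of the 12 was 18.4, 52.3 and 78.8 CPM in HCD-weaned and 43.8, 60.9 and 90.4 CPM in RD-weaned libraries. Nkx2-1, a factor that defines much of the hypothalamus, had 0, 2.99 and 6.25 CPM against 0.395, 2.77 and 5.57 CPM, the 0 being in library 29. Library 29, which also had the lowest summed level (18.4 CPM), held some hypothalamic peptides and lacked others. Pmch was at 207.6 CPM and Cartpt at 82.9 CPM there, whereas Oxt, Agrp, Crh, Gal and Vip were at 0 CPM. Its Npy, at 12.1 CPM, was the lowest of the 12 libraries. Of all tested genes, 23.8% were at 0 in library 29, Pgm1 and Ppara among them. The part of the library's low total count in these zeros was not tested. Markers of thalamus, habenula, striatum and cortex were present in every library. Summed thalamus markers were 393, 647 and 844 CPM in HCD-weaned and 214.5, 407 and 854 CPM in RD-weaned libraries, and all 10 members had positive log2 fold changes (median 0.44). Habenula markers were 132.6, 401 and 545.6 CPM against 84.1, 97.4 and 609 CPM, with 7 of 8 positive (median 0.66). Cortex and hippocampus markers were 704.8, 1213.5 and 3458.6 CPM against 514.5, 1776.1 and 4469 CPM, with 13 of 14 negative (median -0.60). Genes of a region move together between libraries, so these shared signs are not independent, and 0 members of these lists had an unadjusted p under 0.05.

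Single libraries carried contrasting regional profiles. RD-weaned library 36 had the highest habenula sum (609 CPM), the highest thalamus sum (854 CPM) and the lowest cortex and hippocampus sum (514.5 CPM), with Oxt, Hcrt and Pmch among the highest values. RD-weaned library 22 had the highest cortex and hippocampus sum (4469 CPM) and the lowest thalamus sum (214.5 CPM), with Hcrt at 0, Oxt at 0.148 CPM and Pmch at 0.741 CPM, the lowest of all libraries for Pmch. Choroid plexus markers, led by the transthyretin gene Ttr, summed to 2516.9, 4508.1 and 9039.1 CPM in HCD-weaned and 1888, 3701.6 and 6268.5 CPM in RD-weaned libraries. The part of these regional differences in any value above was not tested.

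**Figure D5:**
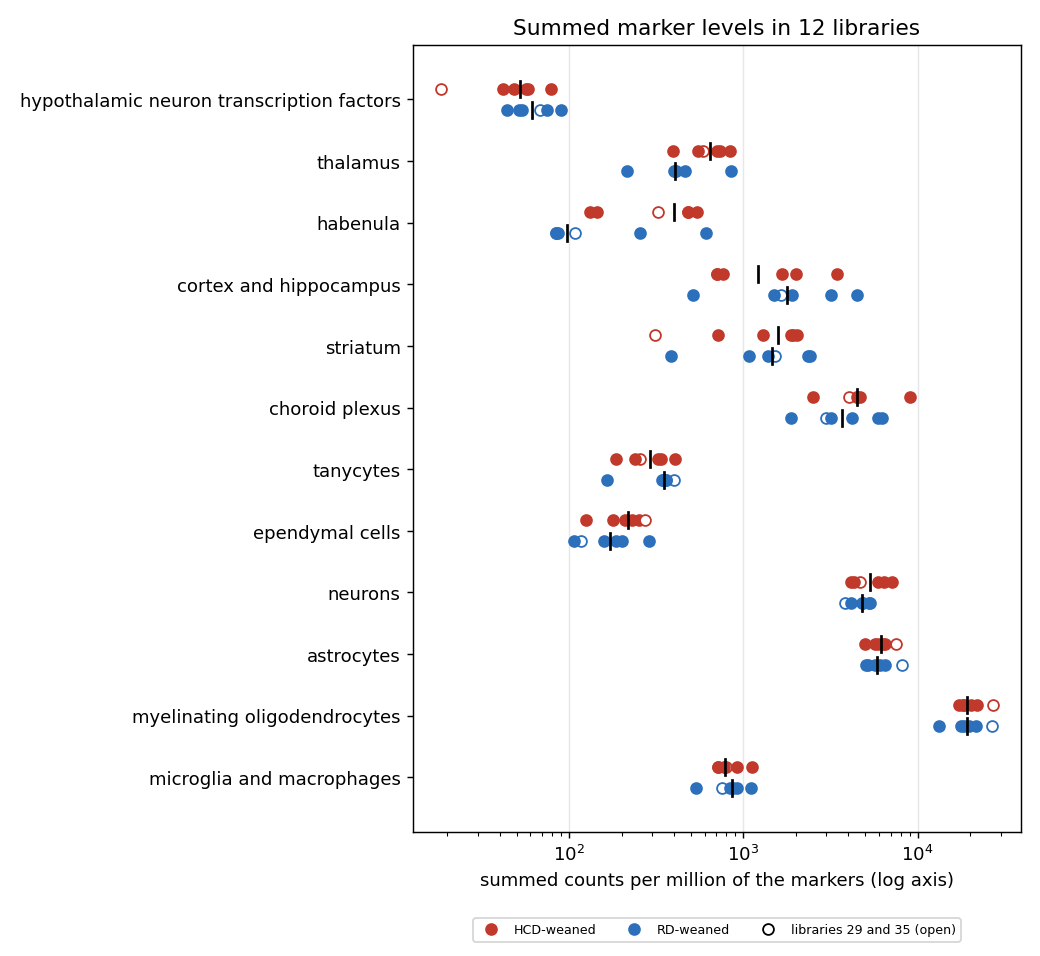
Summed CPM (log axis) of the markers of 12 cell types or regions, with 1 point per library, HCD-weaned in red and RD-weaned in blue, medians as black bars and libraries 29 and 35 open. Neuron, astrocyte, myelin and microglia sums fall in narrow ranges, while habenula and cortex and hippocampus sums spread several-fold within both diets; the 2 diets overlap in every row.

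The same contrast of postnatal diet in male offspring (code A) was subtracted to see whether the difference between diets was itself different in females. Of 15308 genes tested over all 24 libraries, 0 (0.0%) passed an adjusted p of 0.05 in edgeR's quasi-likelihood test, and 337 (2.2%) had an unadjusted p under 0.05, with DESeq2 also calling 0 and giving 551. For RD-weaned males there were 6 columns where the labels list 7 samples, and each sex and diet has its own table, so sex and table cannot be told apart. Synpr had -0.84 in females and 0.18 in males in that fit, a difference of -1.02 (-2.18 to 0.15). Pgam1 had -0.57 and 0.27, a difference of -0.83 (-1.42 to -0.25), and Ttyh2 0.46 and -0.33, a difference of 0.79 (0.26 to 1.32). Synpr, Pgam1 and Ttyh2 were chosen for a small p in females, which itself favours a large difference from males. Their values are therefore a description. Among genes with a mean count of 100 or more, Snx2, a sorting nexin of endosomes, had the smallest p of the difference, with -0.41 and 0.53. None of these genes was called.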

How the data were processed

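Stranded poly(A) libraries (TruSeq Stranded mRNA kit) were made from frozen hypothalamus, per the labels' protocols. The values used are whole-number counts per gene, as the authors deposited them. The submitters' processing notes name DESeq and mm10. Which aligner, counter or annotation the authors used was not given in the sources used here. The 24 library columns of regularized log values and the authors' tables of maternal diet were not used.

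The 12 code B libraries were normalized together (TMM) and genes with a mean count of 10 or more were fitted with edgeR 4.0.16 (quasi-likelihood, R 4.3.3), with Benjamini-Hochberg adjustment over all genes tested. Intervals at 95% came from the log2 fold change and its standard error, taken as its size over the square root of F. DESeq2 1.42.0 and limma 3.58.1 were alternatives, as were other scalings, count minimums, a fit joint with code A, removal of length and GC trends, and leaving out libraries. The steps were tested on simulated data. CPM is not divided by transcript length, so levels are compared within a gene only. Coordinates are those of RefSeq for GRCm38.p6, the assembly of mm10.

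The members, gene lists and the named-gene rule were chosen with earlier results of these data known. The rule named called genes, of which there were none, and 13 genes in any case (Pomc, Agrp, Npy, Cartpt, Oxt, Avp, Pmch, Hcrt, Lepr, Insr, Nr3c1, Mc4r and Xist). All other genes were named after their values had been seen. A gene among those with the smallest p is not reported here.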

Additional observations from a re-analysis of the deposited data

Results flagged for a closer look

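In 14 of 110 sets of 6 libraries tested (55 quantities in each diet), the highest or lowest library lay far from the other 5. The rule flags about 1 in 20 sets of independent, normally distributed values. Many of the present sets are skewed and all sets of a diet share its 6 libraries, so the 14 cannot be set against that rate. Library 29 of the HCD-weaned group was the low value of total count (8515337) and of Lepr (0 CPM) and Rab34 (6.75 CPM), and the high value of genes at 0 (23.8%). In the same group library 28 was high for Oxt (149.6 CPM) and Avp (345 CPM), library 30 for Pisd-ps1 (147 CPM), and library 18 for the summed choroid plexus markers (9039.1 CPM).

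Among RD-weaned libraries, library 35 was high for genes at 0 (7.24%) and for Lepr (9.49 CPM). Library 22 was high for Pomc (46.6 CPM). Library 36 was high for the glycine transporter gene Slc6a9 (104.8 CPM) and for the summed habenula markers (609 CPM), and low for the summed tanycyte markers (165.4 CPM).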

How the results depend on the processing

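No setting tried gave a called gene, either for the comparison of diets or for its difference between codes B and A. Over 21 settings for the diets the smallest adjusted p was 0.141, in limma with quality weights, where the weights ran from 0.096 for library 29 to 5.13 for library 16. The number of genes at an unadjusted p under 0.05, 498 as reported, was 2423 in that fit, 962 with length and GC trends removed, 789 of 19548 genes with no count minimum, 243 in the joint fit and 248 to 940 with each library left out. For the difference between codes, 337 as reported, it was 739 with no count minimum and 551 in DESeq2. Of 690 values of 33 named genes, 0 passed the threshold and 13 changed sign, in 8 genes and in none of the 20 genes with the smallest p. Those 20 were chosen by p in the same 12 libraries, so their constant sign was largely set by that choice. With quality weights Pomc was 0.17, Agrp 0.06, Oxt 3.06, Hcrt 0.78, Lepr 0.14 and Insr -0.02. With 1 library left out in turn, Pomc ran from -1.47 to 0.40 (without library 22), Agrp from -0.91 to 0.08 and Oxt from -2.50 to 0.26 (both without library 37), Avp from -1.63 (without library 28) to 2.04, and Lepr from -0.66 to 0.17 (without library 35). In the same way Npy ran from -0.84 to -0.06, Cartpt from 0.10 to 1.63, Pmch from -1.74 to -0.50, Hcrt from -2.0 to -0.34, Mc4r from -0.53 to -0.11 (without library 29), Xist from -0.66 to -0.11 (without library 35), Insr from 0.08 (without library 22) to 0.28 and Nr3c1 from -0.24 to -0.08. Leaving out libraries 29 and 35 together, a choice made after seeing the data, gave 606 genes at an unadjusted p under 0.05, put 73.8% of intervals within 2-fold, and turned Lepr to 0.42 and Mc4r to 0.07.

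No paired analysis was possible because the library columns carry running numbers that match no replicate number in the labels. Leaving out libraries 29 and 35 did not narrow the errors of Pomc and Avp: the standard error of the log2 fold change went from 0.74 to 0.80 for Pomc and from 1.33 to 1.39 for Avp.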

Other observations

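Myh6, which encodes the cardiac myosin heavy chain alpha, was at 1.78, 2.99 and 3.48 CPM in RD-weaned libraries 35, 36 and 37 and at 0 in RD-weaned libraries 22, 23 and 24, and no HCD-weaned library exceeded 0.0998 CPM. Gm1821 was at 10.6 and 9.51 CPM in RD-weaned libraries 23 and 24 and at most 0.331 CPM in any HCD-weaned library. Both genes were named after their values had been seen, and neither was called.

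Metallothioneins, small proteins that bind zinc and copper, separated the HCD-weaned libraries by their running numbers. Mt1 stood at 337, 362 and 354 CPM in libraries 28, 29 and 30 and at 918, 1638 and 1401 CPM in libraries 16, 17 and 18, and Mt2 at 164, 194 and 171.5 CPM against 377, 547.6 and 454 CPM. The split was not particular to metallothioneins, since Mif, Tsc22d3 and Slc2a1 also had all of libraries 28, 29 and 30 below libraries 16, 17 and 18. Mif, for example, had 137.1, 113.5 and 125.2 CPM against 321.2, 436.7 and 373.1 CPM. How many genes split in this way was not counted. What the runs of numbers stand for is not stated in the labels. Over the diets, Mt1 had 337, 640 and 1638 CPM in HCD-weaned and 335.5, 454 and 716 CPM in RD-weaned libraries, and Mt2 had 164, 285 and 547.6 CPM against 173, 211 and 332 CPM. The groups overlapped for both, with log2 fold changes of 0.72 and 0.39, and 0 of the 11 genes of metallothioneins and zinc handling had an unadjusted p under 0.05.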
